A study of Mus musculus with 2 samples.

Results

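Expression of 10 macrophage scavenger and adhesion genes was described in the adult mouse thymus. The genes are Siglec1, Mrc1, Marco, Msr1, Cd5l, Vcam1, Fcna, Adgre1, Folr2 and Lyve1. They were chosen by symbol, all 10 were among the 32285 gene rows of the 2021 library, and none was dropped. The series holds 2 single-cell RNA-seq libraries, from 2021 and 2024, of cells that were sorted for surface CD64 from the enzymatically digested thymus of adult C57BL/6 mice (C57BL/6J in the series design) and sequenced with 10x Genomics 3′ chemistry. CD64 is the high-affinity IgG receptor encoded by Fcgr1. There is 1 group, with no treatment or mutant, and the labels give neither the sex nor the number of mice. All levels come from the 2021 library, since no gene names were used for the 2024 library, so every value rests on 1 library without replicates. No difference below has a statistical test, and all intervals are 95% intervals that cover counting error only.

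Macrophages recognise dying cells, microbes and modified lipoproteins through scavenger receptors and lectins, and hold on to other cells through adhesion molecules. In the thymus, where most developing T cells die during selection, macrophages are known for clearing these cells. The 10 genes are used elsewhere to tell tissue macrophages from monocytes and dendritic cells, and some are known as markers of macrophages that recycle iron. Cd5l and Fcna encode secreted proteins, whereas the other 8 encode proteins of the cell surface.

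The 2021 library held 3214 barcodes with 8534578 UMIs in all (a UMI, or unique molecular identifier, stands for a captured transcript), at a median of 2157.5 UMIs per barcode. The 2024 library held 2815 barcodes with a median of 5312 UMIs. Of the 2021 barcodes, 3188 passed the filters and 3185 remained after 3 called doublets were removed. They formed 19 clusters made without the 10 genes and named from markers that hold none of them. Although the labels name the cell type as macrophage, the markers placed 230 cells in a macrophage-like class, 754 in a monocyte-like class and 814 in a conventional dendritic cell (DC)-like class. The others were 496 neutrophil-like, 363 T lineage-like, 302 NK and ILC-like, 215 B lineage-like and 11 mast cell and basophil-like cells. Fcgr1 itself stood at 135 CPM (109 to 165) in macrophage-like and 68.3 CPM (57.6 to 80.5) in monocyte-like cells. It stood at 5.44 CPM (3.04 to 8.97) in the neutrophil, T, B and NK and ILC-like classes together. The conventional DC-like level, 5.08 CPM (2.84 to 8.38), was not separated from this. Fcgr1 is also 1 of the 13 markers that named the macrophage-like class, so its place there is partly set by the naming. CPM counts the UMIs of a gene in every 1000000 UMIs of a group of cells.

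Macrophage-like cells came from 2 clusters. The larger, of 195 cells, had all 13 macrophage markers raised. The smaller, of 35 cells, had 11 of 13 raised, was shallow (median 659 UMIs) and also had 5 of 11 T lineage markers raised. Divided further, again without the 10 genes, the macrophage-like cells gave 5 sub-clusters, named here by leading genes. The 72 Spic Cd163 cells met the rule for iron-handling-like macrophages with 7 of 8 markers raised (such as Slc40a1, the iron exporter, with 198 UMIs), and the 9 Prg4 Alox15 cells that for serous-cavity-like macrophages with 5 of 7. The Atp6v0d2 Apoc1 (31 cells, median 659 UMIs), Lyz1 Plac8 (51 cells) and Plet1 Tnfsf8 (67 cells) sub-clusters took no subset name. Markers of a sub-cluster were compared with the other macrophage-like cells only. On that measure Lyz1 Plac8 cells had 4 of 9 classical monocyte markers raised and Plet1 Tnfsf8 cells 6 of 11 T lineage markers. The classical monocyte markers together stood at 3696 CPM in Lyz1 Plac8 and 6316 CPM in monocyte-like cells. The T lineage markers together stood at 522 CPM in Plet1 Tnfsf8 and 12051 CPM in T lineage-like cells. The part of these transcripts in the levels below was not tested.

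Vcam1, Adgre1, Mrc1, Msr1 and Fcna carried most of the signal, with 1043, 333, 283, 131 and 103 UMIs in the kept cells. Siglec1 had 26 UMIs in 23 cells and Cd5l 17 UMIs in 11 cells. Folr2 had 6 UMIs in 4 cells, and Marco and Lyve1 had 1 UMI each. Each cell was thinned to 2000 UMIs, and cells with fewer were left out. Of the 31 Atp6v0d2 Apoc1 cells only 1 remained. After thinning, 104 of 140 macrophage-like cells held a UMI of at least 1 of the 10 genes, a share of 74.3% (66.2 to 81.3). It was 47.4% with clusters at resolution 0.5, 47.6% with the 10 genes kept in the clustering and 47.9% with the Cxcl9 Ly6i cluster, described below, counted as macrophage-like. The share was 25.4% (21.6 to 29.6) in monocyte-like cells and 6.03% (4.41 to 8.01) in conventional DC-like cells. In neutrophil-like cells, which served as a reference class, it was 4.33% (2.0 to 8.05), in T lineage-like cells 5.38% (1.77 to 12.1) and in B lineage-like cells 8.05% (3.30 to 15.9). Only 8 NK and ILC-like cells were deep enough to thin, of which 3 held a UMI (37.5%, 8.52 to 75.5). Without thinning the macrophage-like share was 81.3% of 230 cells, at a median of 2391.5 UMIs, and the neutrophil-like share 6.05%, at a median of 1739.5 UMIs. The share in conventional DC-like cells thus lay within the intervals of the neutrophil, T and B lineage-like classes, which should lack these genes, and below that of the 8 NK and ILC-like cells.

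**Figure D1:**
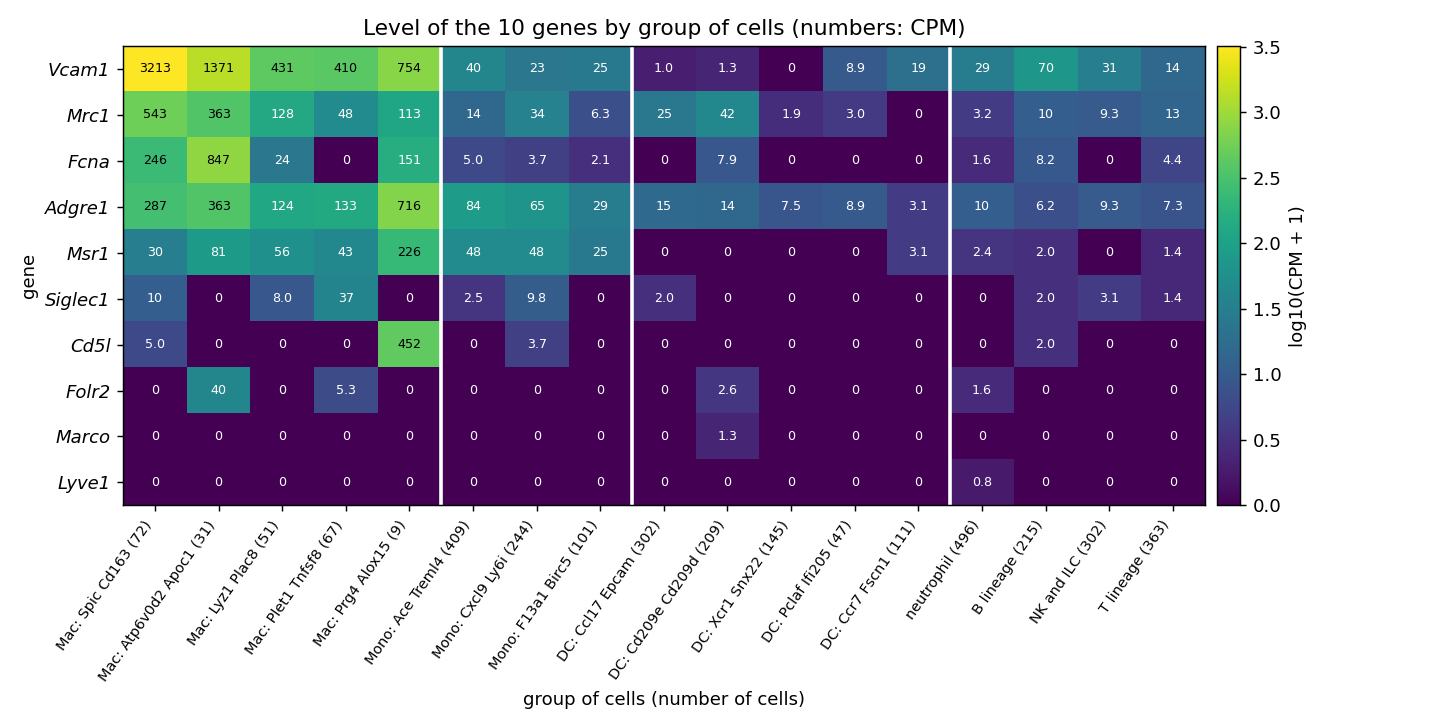
Level of each of the 10 genes (rows) in macrophage-like sub-clusters, monocyte-like clusters, conventional DC-like clusters and 4 other classes (columns, with cell numbers), as log10(CPM + 1) in colour and CPM in digits; the 11 mast cell and basophil-like cells are not drawn. Vcam1 reaches 3213 CPM in Spic Cd163 cells, Cd5l is concentrated in Prg4 Alox15 cells at 452 CPM, and Marco and Lyve1 are at 0 in every macrophage-like sub-cluster.

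In the GRCm38 assembly with GENCODE M21 annotation, all 10 are protein-coding genes. Vcam1 lies at chr3:116109949-116129688 on the minus strand, Mrc1 at chr2:14229392-14332057 on the plus strand, Fcna at chr2:25624666-25628030 on the minus strand and Adgre1 at chr17:57358691-57483527 on the plus strand. Msr1 spans chr8:39581685-39642673, Siglec1 chr2:131069220-131086765, Marco chr1:120474538-120505024, Folr2 chr7:101839988-101857194 and Lyve1 chr7:110850607-110863239, all on the minus strand, and Cd5l chr3:87357881-87371073 on the plus strand. Vcam1, Fcna and Folr2 overlap a gene on the opposite strand (Gm43109 for Vcam1, Fcnaos for Fcna, Gm10602 and Gm45319 for Folr2), and Mrc1 holds Mir511 on its own strand. The strand setting of the counting was not given, so the levels of these 4 genes may include reads of the overlapping genes.

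Promoter sequences from RefSeq (GRCm38.p6, 250 bases before to 50 after the start) were found for 5 of the 10 genes. Those of Mrc1, Fcna and Cd5l are shown because these 3 were higher in macrophage-like cells than in both monocyte-like and conventional DC-like cells. Capitals mark matches, on either strand, to GAGGAAG, the core bound by the myeloid factor PU.1, and to TGCTGA, a core bound by macrophage factors of the MAF family. On the minus strand these read CTTCCTC and TCAGCA. The windows are chr2:14229164-14229463 (plus strand) for Mrc1, chr2:25627925-25628224 (minus strand) for Fcna and chr3:87357631-87357930 (plus strand) for Cd5l.
Mrc1: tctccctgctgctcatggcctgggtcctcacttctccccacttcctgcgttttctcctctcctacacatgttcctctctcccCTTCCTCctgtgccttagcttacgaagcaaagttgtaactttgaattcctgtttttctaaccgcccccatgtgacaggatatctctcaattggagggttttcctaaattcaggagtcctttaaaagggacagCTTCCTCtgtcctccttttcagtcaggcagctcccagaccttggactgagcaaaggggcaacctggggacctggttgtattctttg
Fcna: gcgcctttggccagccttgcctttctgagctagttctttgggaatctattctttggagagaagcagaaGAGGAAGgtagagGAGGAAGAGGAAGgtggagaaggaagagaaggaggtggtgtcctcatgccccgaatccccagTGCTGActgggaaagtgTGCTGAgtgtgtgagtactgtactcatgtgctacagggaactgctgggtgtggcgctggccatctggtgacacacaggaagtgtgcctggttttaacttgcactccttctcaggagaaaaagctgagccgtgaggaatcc
Cd5l: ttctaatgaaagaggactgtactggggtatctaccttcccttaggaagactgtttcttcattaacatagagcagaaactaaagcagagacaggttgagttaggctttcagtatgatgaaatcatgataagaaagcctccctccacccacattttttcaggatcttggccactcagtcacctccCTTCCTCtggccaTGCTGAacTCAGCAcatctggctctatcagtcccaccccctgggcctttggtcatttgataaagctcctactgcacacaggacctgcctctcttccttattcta
The Fcna window held 3 PU.1 matches, of which 2 overlap by 1 base, and 2 MAF core matches. The Cd5l window held 1 PU.1 match and 2 MAF core matches, 1 on each strand. The Mrc1 window held 2 PU.1 matches and no MAF core match. Among the windows not shown, that of Marco held 1 PU.1 match and no MAF core match. The 2 Folr2 windows held 1 MAF core match each and no PU.1 match, so matches also occurred at genes with few UMIs. Of 32851 RefSeq promoter windows of 300 bases, 13.6% held the PU.1 core and 19.5% the MAF core, and a match describes letters and not binding.

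Vcam1, the adhesion molecule that binds integrin alpha 4 beta 1 on lymphocytes, marked macrophage-like cells more than any other class in this library. It reached 1275 CPM (1192 to 1362), with UMIs in 144 of 230 cells and up to 32 in a cell. Monocyte-like cells stood at 30.1 CPM (23.1 to 38.5) and conventional DC-like cells at 3.72 CPM (1.86 to 6.66). The macrophage-like level was 42.3-fold (32.8 to 55.6) the monocyte-like level and 342-fold (190 to 688) the conventional DC-like level. The first depended on the cells included: its log2 ratio, given below as 5.0, was 3.74 with clusters at resolution 0.5, 3.76 with the 10 genes kept in the clustering and 3.77 with Cxcl9 Ly6i cells counted as macrophage-like. The monocyte-like level was, however, close to that of neutrophil-like cells, at 29.4 CPM (20.7 to 40.5), so it was not separated from the level of a class that should lack the gene. Both levels were uneven among cells. Of 37 neutrophil-like Vcam1 UMIs 18 lay in 2 cells, and of 63 monocyte-like UMIs 17 lay in 2 cells.

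Within macrophage-like cells Vcam1 followed the iron-handling-like subset. Spic Cd163 cells held 639 of the 878 Vcam1 UMIs, at 3213 CPM (2968 to 3472), in 69 of 72 cells with a median of 8 UMIs per cell. The Atp6v0d2 Apoc1 cells followed at 1371 CPM (949 to 1915), and Lyz1 Plac8 and Plet1 Tnfsf8 cells stood at 431 CPM (353 to 520) and 410 CPM (324 to 512), with overlapping intervals. All 20 Vcam1 UMIs of the Prg4 Alox15 cells lay in 1 of 9 cells, so their 754 CPM does not describe that group. After thinning, 95.3% (84.2 to 99.4) of 43 Spic Cd163 cells and 42.3% (32.3 to 52.7) of 97 other macrophage-like cells held a Vcam1 UMI, so the gene was not absent from the rest. The 97 cells include only 1 of the 31 Atp6v0d2 Apoc1 cells.

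Mrc1, the mannose receptor CD206, stood at 234 CPM (199 to 273) in macrophage-like, 20.1 CPM (14.5 to 27.1) in monocyte-like and 20.0 CPM (15.2 to 25.8) in conventional DC-like cells, an 11.6-fold (8.25 to 16.8) and 11.7-fold (8.63 to 16.0) difference. Among the DC-like clusters it was uneven. The Cd209e Cd209d cluster reached 42.2 CPM (28.9 to 59.6) and the Ccl17 Epcam cluster 24.7 CPM (16.0 to 36.4), both of the type 2 kind. The Xcr1 Snx22 cluster of the type 1 kind had 1 UMI in 145 cells, and the mature Ccr7 Fscn1 cluster had 0 in 111 cells, which allows up to 9.44 CPM by a limit of 3 counts. These type 2 clusters held 32 and 25 of the 59 Mrc1 UMIs of the class, and the Cd209e Cd209d level lay above the 7.61 CPM (4.71 to 11.6) of the neutrophil and lymphoid classes together. Among monocyte-like clusters, Cxcl9 Ly6i cells were highest at 34.4 CPM (22.8 to 49.7). These cells took their name from 3 of 9 classical monocyte markers, the fewest that the naming rule allows, with none among their leading genes. They also had 2 of 13 macrophage markers raised.

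Mrc1 was also highest in iron-handling-like cells, at 543 CPM (445 to 656), with UMIs in 47 of 72 cells. It stood at 363 CPM (166 to 689) in Atp6v0d2 Apoc1, 128 CPM (87.3 to 180) in Lyz1 Plac8, 113 CPM (23.3 to 331) in Prg4 Alox15 and 47.9 CPM (21.9 to 91.0) in Plet1 Tnfsf8 cells. The intervals of neighbours in this order overlapped, whereas those of Spic Cd163 and Lyz1 Plac8 cells did not.

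Fcna, which encodes ficolin A, a secreted lectin that starts the lectin pathway of complement, had 80 of its 103 UMIs in macrophage-like cells, at 116 CPM (92.1 to 145). It stood at 3.82 CPM (1.65 to 7.53) in monocyte-like and 2.03 CPM (0.745 to 4.42) in conventional DC-like cells, against 3.26 CPM (1.49 to 6.19) in the neutrophil and lymphoid classes. All 6 Fcna UMIs of the DC-like class were in the Cd209e Cd209d cluster. Spic Cd163 cells reached 246 CPM (182 to 326) in 30 of 72 cells. The 847 CPM (524 to 1294) of Atp6v0d2 Apoc1 cells came from 4 of 31 cells, of which 1 held 14 of the 21 UMIs. Plet1 Tnfsf8 cells had 0 Fcna UMIs in 67 cells, which allows up to 16.0 CPM, below the lower bound of the iron-handling-like level.

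**Figure D2:**
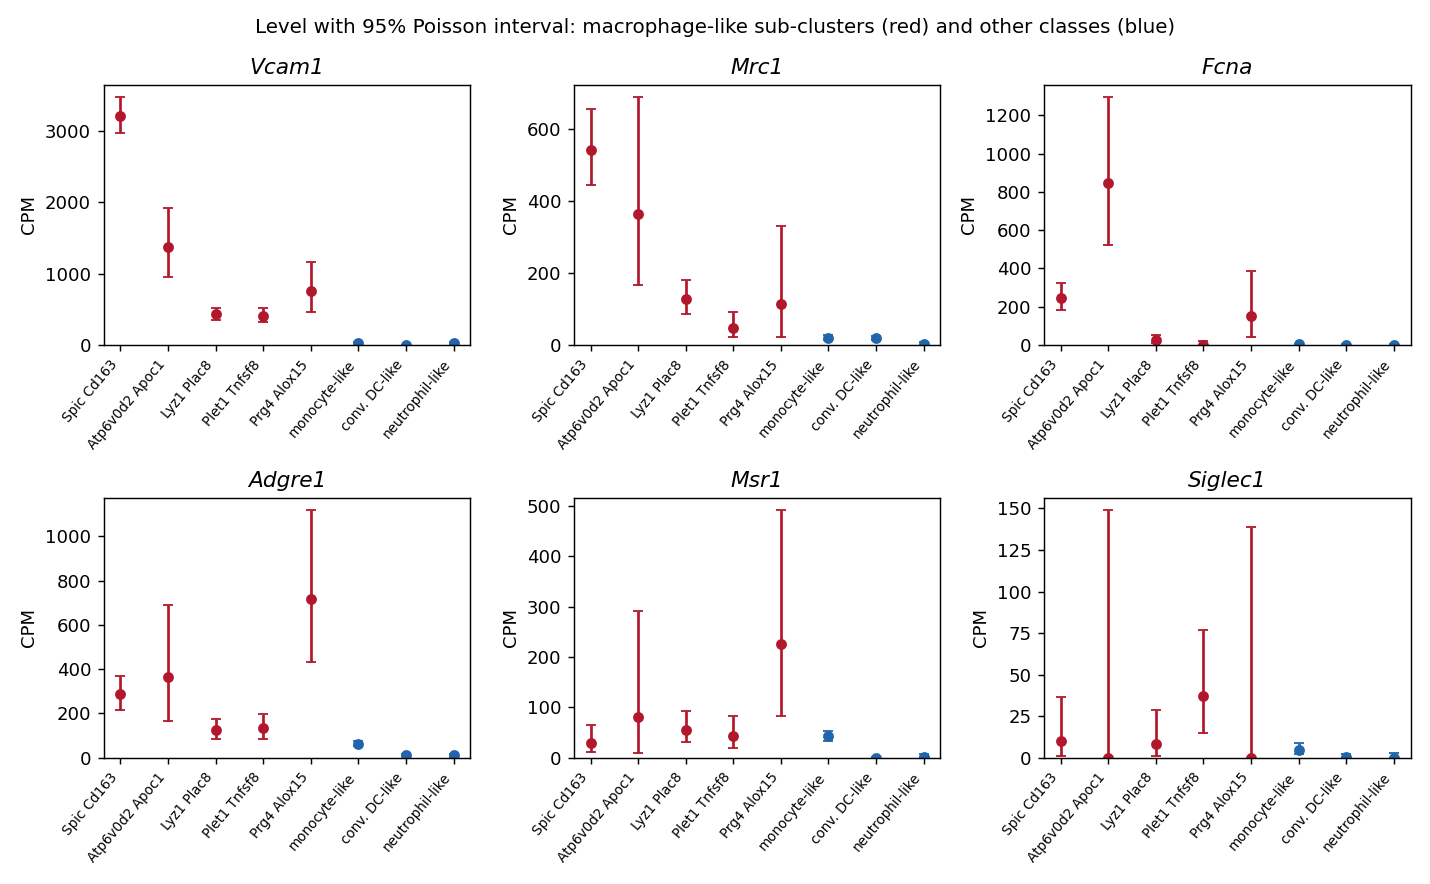
CPM (vertical axes, each from 0) of 6 genes in the 5 macrophage-like sub-clusters (red) and in 3 other classes (blue), as points with 95% Poisson intervals. Vcam1 and Mrc1 are highest in Spic Cd163 cells at 3213 and 543 CPM, Adgre1 and Msr1 in the 9 Prg4 Alox15 cells at 716 and 226 CPM, and Siglec1 in Plet1 Tnfsf8 cells at 37.3 CPM.

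Adgre1, which encodes the adhesion receptor F4/80, was shared between macrophage-like and monocyte-like cells. Macrophage-like cells held 141 and monocyte-like cells 134 of its 333 UMIs, at 205 CPM (172 to 241) and 64.0 CPM (53.7 to 75.8), a 3.20-fold (2.51 to 4.08) difference. Ace Treml4 cells, with 8 of 9 nonclassical and 7 of 9 classical monocyte markers raised, at 83.9 CPM (65.0 to 107), and Cxcl9 Ly6i cells, at 65.1 CPM (48.7 to 85.1), were higher than the dividing F13a1 Birc5 cells at 29.2 CPM (16.0 to 49.0), whose interval overlapped that of the Cxcl9 Ly6i cells only. The conventional DC-like level of 11.5 CPM (7.97 to 16.1) overlapped the 8.70 CPM (5.57 to 12.9) of the neutrophil and lymphoid classes. Unlike Vcam1, Adgre1 did not peak in the iron-handling-like cells. It reached 716 CPM (431 to 1119) in the 9 Prg4 Alox15 cells, with UMIs in 7 of them, then 363 CPM (166 to 689) in Atp6v0d2 Apoc1 and 287 CPM (217 to 371) in Spic Cd163 cells. Lyz1 Plac8 and Plet1 Tnfsf8 cells stood at 124 CPM (84.0 to 175) and 133 CPM (86.1 to 196).

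The class A scavenger receptors Msr1 and Marco take up modified lipoproteins and bacteria. Msr1 was shared by macrophages and monocytes, at 52.3 CPM (36.6 to 72.4) in macrophage-like and 42.5 CPM (34.2 to 52.3) in monocyte-like cells, a ratio of 1.23 (0.810 to 1.83) that counting error does not separate from 1. Its thinned shares ran in the other direction, 5.71% (2.50 to 10.9) against 9.17% (6.74 to 12.1), and no order was read from them. Conventional DC-like cells held 1 Msr1 UMI in 814 cells, 0.339 CPM, and the neutrophil and lymphoid classes 1.81 CPM (0.588 to 4.23). Msr1 thus lay near background in conventional DC-like cells, and the macrophage-like level was 154-fold (26.0 to 6265) higher, a ratio that rests on 1 DC-like UMI. Its highest level was in Prg4 Alox15 cells, 226 CPM (83.0 to 492) from 6 UMIs in 4 cells. Marco had its 1 UMI in a conventional DC-like cell, and 0 in macrophage-like cells allows up to 4.36 CPM.

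Cd5l, which encodes a secreted scavenger-family protein also called AIM, lay mostly in the serous-cavity-like cells of this library. Of 17 UMIs, 12 lay in 8 of the 9 Prg4 Alox15 cells, at 452 CPM (234 to 790), and 1 in a Spic Cd163 cell. The other 3 macrophage-like sub-clusters had 0 UMIs. Outside the class, 1 Cxcl9 Ly6i cell held 3 UMIs and 1 B lineage-like cell held 1. The macrophage-like level of 18.9 CPM (10.0 to 32.3) thus rested on 9 of 230 cells. Conventional DC-like cells had 0 UMIs. With a limit of 3 counts over that class, the macrophage-like level as measured was at least 18.6-fold higher, and the exact interval of the ratio, which also covers the error of the 13 macrophage-like UMIs, began at 13.1.

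Siglec1, the sialic acid-binding receptor CD169, was rare. Macrophage-like cells held 11 UMIs in 9 cells, 16.0 CPM (7.97 to 28.6), and monocyte-like cells 10 UMIs in 9 cells, 4.78 CPM (2.29 to 8.79). Of the monocyte-like UMIs, 8 were in Cxcl9 Ly6i cells, a cluster led by the interferon-induced chemokine genes Cxcl9 and Cxcl10. Of the macrophage-like UMIs, 7 were in Plet1 Tnfsf8 cells, at 37.3 CPM (15 to 76.8), and 2 in Spic Cd163 cells, at 10.1 CPM (1.22 to 36.3), with overlapping intervals. Folr2, the folate receptor beta, had 2 UMIs each in macrophage-like, conventional DC-like and neutrophil-like cells. Lyve1, a hyaluronan receptor known from lymphatic endothelium and some resident macrophages, had its 1 UMI in a neutrophil-like cell. Of 5 lymphatic endothelium markers, the macrophage-like cells held 3 UMIs of Prox1 and 0 of the other 4.

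Over monocyte-like cells, 5 of the 7 genes with at least 10 UMIs in both classes together were at least 2-fold higher in macrophage-like cells, where 6.57% of 9568 genes were. None was at least 2-fold lower, against 1.89% of all genes. Fold here is the log2 ratio of CPM with 10 CPM added to both sides, which understates the change of low genes. The 5 were Vcam1 (5.0), Fcna (3.19), Mrc1 (3.02), Adgre1 (1.54) and Cd5l (1.34), and the median of the 7 was 1.54 beside 0.12 over all genes. Fcna and Cd5l had under 10 UMIs in monocyte-like cells and met the minimum through the macrophage-like cells, so the count and median describe the genes and are no support. Fcna ran from 2.08 (resolution 0.5) to 4.60 (1 CPM added). Siglec1, at 0.81, and Msr1, at 0.25, did not reach 1. Adgre1 fell short of 1 with clusters at resolution 0.5 (0.61), with the 10 genes kept in the clustering (0.91) and with the Cxcl9 Ly6i cells, which share macrophage markers, counted as macrophage-like (0.92).

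Over conventional DC-like cells, 7 of 7 were at least 2-fold higher, where 10.2% of 10168 genes were, and none lower, where 2.05% were. This count is no support, since Fcna, Msr1, Siglec1 and Cd5l had under 10 UMIs in conventional DC-like cells and met the minimum through the macrophage-like cells. The log2 ratios were 6.55 for Vcam1, 3.39 for Fcna, 3.32 for Adgre1, 3.02 for Mrc1, 2.59 for Msr1, 1.53 for Cd5l and 1.28 for Siglec1, with a median of 3.02 beside 0.17. Within the macrophage-like class, 3 of 7 were at least 2-fold higher in iron-handling-like than in the other 158 cells, where 10.3% of 6756 genes were. They were Vcam1 (2.69, or 6.59-fold, 5.67 to 7.67), Mrc1 (2.23, or 5.02-fold, 3.58 to 7.11) and Fcna (1.81, or 3.89-fold, 2.43 to 6.32). Cd5l was lower (-1.20), where 6.34% of all genes were, but its interval of 0.00480 to 1.39 for the ratio includes 1 and its UMIs in the other cells all lay in the Prg4 Alox15 group. Cd5l was at -0.20 with the 10 genes kept in the clustering, -0.51 at resolution 0.5 and -0.82 without the cell with most UMIs. Adgre1 (0.71), Siglec1 (-0.50) and Msr1 (-0.83) were within 2-fold. Siglec1, on 11 UMIs, passed 2-fold lower with the highest doublet scores removed (-1.55), with sub-clusters at resolution 1.0 (-1.50) and with cells chosen by Spic or Slc40a1 UMIs (-1.16), and Adgre1 passed 2-fold higher at resolution 0.5 (1.46) and with the 10 genes kept in the clustering (1.60). The median of the 7 was 0.71 beside 0.13. Scaling by the median of gene ratios in place of total UMIs shifted CPM ratios by 0.19, 0.27 and 0.16 on the log2 scale in the 3 comparisons. The log2 ratios given here, with 10 CPM added, moved by at most these amounts, and no direction of the 7 genes turned with it.

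**Figure D3:**
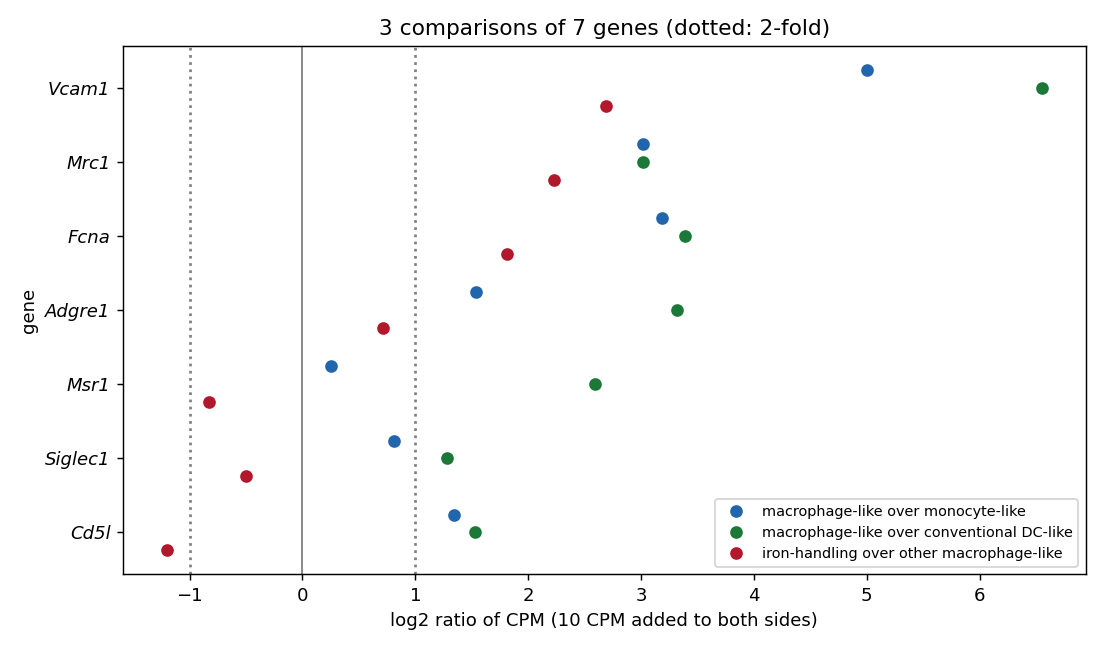
Log2 ratio of CPM (horizontal axis, 10 CPM added to both sides) of the 7 genes with enough UMIs in the 3 comparisons, coloured by comparison, with dotted lines at 2-fold in each direction. Vcam1, Mrc1 and Fcna lie to the right of the 2-fold line in all 3, whereas Cd5l lies at -1.20 for iron-handling-like over other macrophage-like cells.

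Other markers moved with the iron-handling-like subset. Its cells held 504 UMIs of the 10 neutrophil markers, of which Cxcr2 was at 0, at 2534 CPM, against 390 CPM in the other macrophage-like cells, with S100a9 leading at 264 UMIs. Of the 72 cells, 8 (11.1%) were among the 6% of cells with the highest doublet scores, and they held 79 of the 639 Vcam1 UMIs. In Lyz1 Plac8 cells the share was 16 of 51 (31.4%), and these held 51 of 108 Vcam1 UMIs. The part of the neutrophil transcripts in the levels was not tested. With the highest-scoring cells removed before clustering, Vcam1, Mrc1 and Fcna were still at least 2-fold higher in the iron-handling-like cells. Endothelial markers, from cells that also carry Vcam1, had 8 UMIs in the subset, 6 of them of Pecam1, with Kdr, Emcn, Egfl7 and Plvap at 0. This is 40.2 CPM (17.4 to 79.3), against 40.8 CPM (24.9 to 63.0) in the other macrophage-like and 18.2 CPM (12.9 to 24.9) in monocyte-like cells. The part of endothelial transcripts in the Vcam1 level was not tested. Fibroblast markers were at 0 in all 230 macrophage-like cells.

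In thinned macrophage-like cells Mrc1 was detected in 32.9% (22.9 to 44.2) of 82 cells with a Vcam1 UMI and in 12.1% (4.99 to 23.3) of 58 without. Fcna was detected in 18.3% (10.6 to 28.4) and 1.72% (0.0436 to 9.24) of the same cells, so the 2 intervals overlapped for Mrc1 and not for Fcna. Among the other macrophage-like cells alone, Mrc1 was detected in 9.76% (2.72 to 23.1) of 41 cells with and 10.7% (4.03 to 21.9) of 56 without a Vcam1 UMI, and Fcna in 2.44% (0.0617 to 12.9) and 1.79% (0.0452 to 9.55), with overlapping intervals for both genes. Msr1 was detected in 3.66% (0.761 to 10.3) of all macrophage-like cells with and 8.62% (2.86 to 19.0) of those without Vcam1, again overlapping. With 1 cell deep enough to thin, the Atp6v0d2 Apoc1 sub-cluster is hardly covered by these shares.

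**Figure D4:**
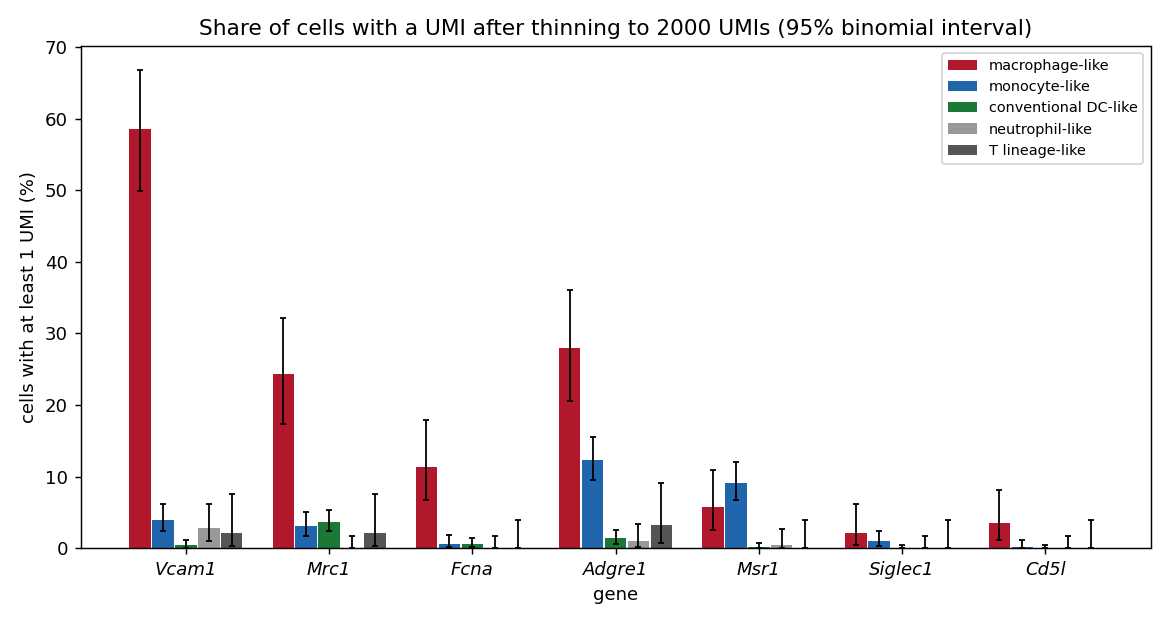
Share of cells with at least 1 UMI of each of 7 genes (bars, from 0) after thinning every cell to 2000 UMIs, in 5 classes, with exact binomial 95% intervals. Vcam1 is found in 58.6% of macrophage-like cells and 3.96% of monocyte-like cells, and Msr1 is the 1 gene with a taller bar in monocyte-like cells.

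Across the 19 clusters, the genes with the most similar pattern were named for the 5 members with at least 50 UMIs, as Pearson correlations of log2(CPM + 10) among 6709 genes. All clusters come from 1 library, the values are descriptive, and no p is given. Vcam1 was closest to Ms4a7 (r = 0.95), Il18bp (0.91) and C1qc (0.91). Fcna was closest to Ccl12 (0.94), Ms4a7 (0.93) and Cadm1 (0.92), and Mrc1 to Rab3il1 (0.93), Tmem86a (0.92) and Hpgds (0.90). Adgre1 was closest to Trem2, Nr1h3 and Lpl (0.94 each). Msr1 had other neighbours, Fn1 (0.95), Arhgef10l (0.94) and Lyz1 (0.90). Ms4a7, C1qc, Il18bp, Trem2 and Cadm1 are in the marker lists that named the clusters.

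Of 67 listed scavenger receptors, lectins and adhesion genes, 65 were in the gene list, and they also entered the clustering. Some are in the lists that named the cells. Mertk and Axl are macrophage markers, Cadm1, Cd209a, Cd209d, Mgl2 and Clec10a conventional DC markers and Icam2 a serous-cavity macrophage marker. Adgre4 and Spn are nonclassical monocyte markers, Siglech a plasmacytoid DC marker and Pecam1 an endothelial marker. The values of these genes, and the counts that include them, are thus partly set by the naming. Over monocyte-like cells, 8 of 13 scavenger receptors with enough UMIs were at least 2-fold higher in macrophage-like cells, where 6.57% of 9568 genes were. None was at least 2-fold lower, where 1.89% were. In the lead were Mertk (3.64), a receptor for dying cells, Cd163 (2.97), the haptoglobin-haemoglobin receptor, and Timd4 (2.58), a phosphatidylserine receptor. Mertk, Cd163, Stab1 and Stab2 had under 10 UMIs in monocyte-like cells and met the minimum through the macrophage-like cells. The count is thus no support. Of 22 adhesion genes 4 were higher, among them Cadm1 (2.86) and Itgad (2.69), and 3 lower, among them Itgb7 (-1.25) and Itgal (-1.14). Cadm1, Itgad and Itga9 also had under 10 UMIs in monocyte-like cells, so the count of higher adhesion genes is no support either. Itga4, the alpha chain of the Vcam1 ligand, stood at 81.3 CPM in macrophage-like and 141 CPM in monocyte-like cells.

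Over conventional DC-like cells, 11 of 13 scavenger receptors were higher, where 10.2% of 10168 genes were, and 0 lower, where 2.05% were. Axl (3.81), Mertk (3.77) and Lrp1 (2.97) led. Mertk, Stab1 and Stab2 had under 10 UMIs in conventional DC-like cells and met the minimum through the macrophage-like cells. Lectins split, with 5 of 16 higher, such as Clec4n (2.90), and 6 lower, led by Cd209d (-3.22), Cd209e (-3.20) and Cd209a (-2.51), DC lectins. Clec4e, Clec4d and Cd209f had under 10 UMIs in conventional DC-like cells, and Cd209e and Siglech in macrophage-like cells. The scavenger receptor and lectin counts are thus no support. Between iron-handling-like and other macrophage-like cells, 7 of 12 scavenger receptors were higher, where 10.3% of 6756 genes were, and 3 lower, where 6.34% were. Cd163 and Stab2 had under 10 UMIs in the other macrophage-like cells, and Cd36 and Stab1 in the iron-handling-like cells. Both counts are thus no support. Cd163 (3.49), Itgad (2.52), Stab2 (2.39) and Mertk (2.33) were the highest of all related genes, and Mgl2 (-2.23), Icam2 (-2.02), F11r (-1.51) and Cxcl16 (-1.36) the lowest. Stab2, like Vcam1, Mrc1 and Fcna, was higher in the iron-handling-like cells, on 17 UMIs against 4 in the other macrophage-like cells. It met the minimum through the cells where it was high, so it is no support. Cd163 was high there too, but it is 1 of the leading genes that label this sub-cluster, so its rank is no support. Cd36 (-1.06) and Stab1 (-1.08), also scavenger receptors, were lower in the same cells, each on 6 UMIs or fewer there. The interval of the ratio was 0.141 to 0.984 for Cd36. That for Stab1, 0.0672 to 1.18, includes 1.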

How the data were processed

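Single cells of the CD64+ sorted thymus were measured in 2 libraries of 1 group. The authors deposited unnormalised UMI counts for every gene and barcode, made with Cell Ranger 6.0.0 (2021) and 8.0.0 (2024) per the file headers, on mm10 per the submitters' processing notes. The annotation and the handling of intronic reads are not given in the sources used here. The 2024 library, with 33696 gene rows and no gene names used, gave depth only, and its barcodes were not compared with those of 2021.

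Barcodes were kept with at least 500 UMIs, 300 genes and at most 10% mitochondrial UMIs. Scrublet in scanpy 1.11.5 (expected rate 6%) called 3 doublets at a threshold of 0.523, which is too few to count as a working call, so most doublets are likely still present. The counts of each cell were scaled to a sum of 10000 and logged. From 2000 variable genes without the 10 members, 30 principal components and 15 neighbours gave Leiden clusters (igraph 0.11.9) at resolution 1.0. A cluster was named from 21 marker lists when at least 3 markers were raised 2-fold against all other cells and no other class had more markers among its 10 leading genes. The study may have named its cells otherwise. Macrophage-like cells were divided again at resolution 0.5, and markers of a sub-cluster were compared with the other macrophage-like cells only. That resolution, the details of the naming rule and 4 alternatives were chosen after seeing the data, and the members and gene lists were chosen with earlier results of these data known.

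UMIs were summed per group and given as CPM with exact Poisson intervals, shares with exact Clopper-Pearson intervals and ratios with exact conditional binomial intervals (scipy 1.17.1). Ratios used genes with at least 10 UMIs in both groups together. A count of 0 was limited at 3 counts. The named genes are the members, the 3 most similar genes (at least 100 UMIs) of each member with at least 50 UMIs, and up to 4 related genes with the largest ratio in each direction. Further related genes named (Timd4, Itga4, Cd36 and Stab1, and marker examples) were chosen after their values were seen, and 1 related gene picked by this rule is left unreported. The ratio script was checked on simulated counts.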

Additional observations from a re-analysis of the deposited data

Results flagged for a closer look

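Members were also detected in classes that should lack them, above the limit of 3 counts. Vcam1 had 37 UMIs in neutrophil-like, 34 in B lineage-like, 10 in T lineage-like and 10 in NK and ILC-like cells. Adgre1 had 13 UMIs in neutrophil-like and 5 in T lineage-like cells. Mrc1 had 9 UMIs in T lineage-like, 5 in B lineage-like and 4 in neutrophil-like cells, and Fcna had 4 in B lineage-like cells.

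The Vcam1 UMIs were uneven among these cells: of 34 in B lineage-like cells 11 lay in 1 cell, and of 37 in neutrophil-like cells 12 lay in 1 cell. Outside the macrophage-like class, 7 cells of any class held at least 5 Vcam1 UMIs. All 7 also held at least 3 UMIs of C1qa, C1qb and C1qc together, against 3.87% of the cells outside the class without Vcam1, and 4 of the 7 were among the cells with the highest doublet scores. In the neutrophil and lymphoid classes together, Vcam1 made up 60.7% (52.4 to 68.5) of the UMIs of the 5 commonest members, against 67.7% (65.1 to 70.3) in macrophage-like cells. In monocyte-like cells it made up 18.8% (14.7 to 23.3) and in conventional DC-like cells 9.91% (5.05 to 17.0). The source of these UMIs was not tested.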

How the results depend on the processing

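The counts of members at least 2-fold higher stayed within 1.5 times their reported values under every alternative run, and no log2 ratio past 1 changed sign. Of the macrophage-like cells, 74.3% held a UMI of any member, and this value changed with the cells included: it was 47.4% with clusters at resolution 0.5, 47.6% with the members kept in the clustering, and 47.9% with the Cxcl9 Ly6i cells counted as macrophage-like. It was 64.9% with cells thinned to 1000 UMIs and 81.3% without thinning. Adgre1 over monocyte-like cells ranged from 0.61 to 1.78 (log2) and reached 1 in 10 of 13 alternatives, Siglec1 from 0.65 to 1.55 in 4 of 13, and Msr1 from -0.09 to 0.57 in 0 of 13. Over monocyte-like cells Vcam1 ranged from 3.74 to 5.51, Fcna from 2.08 to 4.60 and Mrc1 from 2.49 to 3.75. Vcam1, Mrc1 and Fcna reached 1 in all 3 comparisons under every alternative run. Cd5l in iron-handling-like over other macrophage-like cells ranged from -2.08 to -0.20. Siglec1 in that comparison ranged from -1.55 to -0.24. Adgre1 there ranged from 0.55 to 1.60 and reached 1 in 2 of 11. The stricter cell filter left no sub-cluster named iron-handling-like and gave no value for that comparison. No paired analysis was possible because there is 1 group and 1 library with gene names. Depth limits Siglec1, Cd5l, Folr2, Marco and Lyve1, each with 26 UMIs or fewer in 3185 cells.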
